A study of Mus musculus with 24 samples.

Results

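The 10 genes described here are the interleukin-1 (IL-1) family ligands Il1a, Il1b, Il18 and Il33, the antagonists Il1rn and Il18bp, the receptor chains Il1r1, Il1rap and Il1rl1, and the decoy receptor Il1r2. They were found by gene symbol among the 55291 gene names of the count tables, and all 10 passed the filter on low counts that left 16258 genes for testing. The study asked whether extracellular cold-inducible RNA-binding protein (CIRP), a nuclear protein that acts as a danger signal once it leaves the cell, changes gene expression in mouse lung fibroblasts, and whether its receptor TLR4 is needed. Pulmonary fibroblasts from the lungs of wild type (WT) and TLR4-/- mice, both on the C57BL/6 background and 4 to 8 weeks old, were treated at passages 3 to 6 in reduced serum medium for 24 h with phosphate-buffered saline (PBS), with 1 μg/ml recombinant mouse CIRP (rmCIRP), with rmTGF-β1 (the recombinant mouse form of TGF-β1) at 2 ng/ml, or with rmCIRP+rmTGF-β1. Each of these 8 conditions was sequenced in 3 libraries, 24 in all. Each group of cells came from a pool of 3 to 4 lungs, and nothing states that the 3 libraries of a condition came from separate pools. The p-values below therefore measure the spread between libraries, which may be technical. Nor is it stated that a genotype was represented by more than 1 pool. A difference between genotypes, in level or in response, therefore cannot be told apart from a difference between pools or cultures.

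IL-1α and IL-1β, the products of Il1a and Il1b, bind the receptor IL-1R1, which then recruits the accessory protein encoded by Il1rap and signals through MyD88 to NF-κB. The receptor antagonist encoded by Il1rn occupies IL-1R1 without starting a signal, and the decoy receptor encoded by Il1r2 binds IL-1 but has no signaling domain. IL-33, a nuclear alarmin of barrier tissue cells, signals through ST2, the product of Il1rl1, which pairs with the same accessory protein. IL-18 is held in check by the soluble binding protein encoded by Il18bp. IL-1β and IL-18 are made as precursors and are cut by caspase-1 in inflammasomes, so that mRNA levels do not give the amount of active cytokine. Il1rl1 also encodes a soluble form of ST2 that works as a decoy, and counts per gene do not tell it apart from the membrane receptor.

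Each library held between 29853346 and 39664606 reads assigned to genes. The deleted gene does not serve as a check of the genotype here, since Tlr4 had between 842 and 957 reads in the 6 libraries labelled TLR4-/- with PBS or rmCIRP and between 705 and 803 reads in the 6 WT libraries with the same treatments. Which exons these reads cover cannot be read from gene counts, and the libraries are called labelled TLR4-/- throughout. The 10 fibroblast markers and the 13 macrophage markers of the marker lists all exceeded 100 reads in every library. The summed normalized count of the macrophage list was 78043 to 100330 over the 12 WT libraries and 335358 to 429941 over the 12 libraries labelled TLR4-/-. Of the lists for other cells, 3 of 5 neutrophil markers (among them S100a9 and Ly6g), 3 of 5 mast cell markers, 4 of 5 lymphocyte markers and 2 of 5 epithelial markers (Sftpc and Sftpb) were at most 10 reads in every library, as were 0 of 5 endothelial and 0 of 4 mesothelial markers. The endothelial list summed to 264 to 942 and the mesothelial list to 285 to 689 normalized counts over the 24 libraries. In such bulk samples, fewer cells of a type and less RNA per cell cannot be told apart. Among the libraries labelled TLR4-/-, the third with rmCIRP+rmTGF-β1 stood apart from its group by a root mean square deviation of 0.304 on the log2 scale, where the other 23 libraries lay between 0.204 and 0.25. The third with rmTGF-β1 alone differed most from its own replicates after that one, with a chi-square per degree of freedom of 13.1 and 17.2 against them. Results that rest on these libraries are given with their values without them.

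The start sites of Il1a, Il1b, Il1rn and Il1rl1 are shown because these were the 2 ligands, the antagonist and the receptor chain that rose most under rmCIRP. The sequences are the 250 bases before the first listed start site, 5′ to 3′ on the coding strand, from RefSeq on GRCm38.p6, a later build than the NCBIM37 named in the submitters' processing notes. Capitals mark matches to TGANTCA, a consensus of AP-1, or to TTGCNNAA, a consensus of C/EBP.
Il1a, chr2:129309973-129310222, minus strand: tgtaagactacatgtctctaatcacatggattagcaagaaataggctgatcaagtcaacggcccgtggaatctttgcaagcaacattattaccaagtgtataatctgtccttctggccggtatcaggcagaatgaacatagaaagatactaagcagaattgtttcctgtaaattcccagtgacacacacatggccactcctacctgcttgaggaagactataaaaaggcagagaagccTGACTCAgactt
Il1b, chr2:129371140-129371389, minus strand: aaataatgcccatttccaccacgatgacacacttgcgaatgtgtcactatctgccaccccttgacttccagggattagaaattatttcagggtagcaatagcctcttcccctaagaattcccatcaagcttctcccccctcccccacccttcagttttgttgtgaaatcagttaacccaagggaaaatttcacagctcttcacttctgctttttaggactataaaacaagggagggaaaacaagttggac
Il1rn, chr2:24336610-24336859, plus strand: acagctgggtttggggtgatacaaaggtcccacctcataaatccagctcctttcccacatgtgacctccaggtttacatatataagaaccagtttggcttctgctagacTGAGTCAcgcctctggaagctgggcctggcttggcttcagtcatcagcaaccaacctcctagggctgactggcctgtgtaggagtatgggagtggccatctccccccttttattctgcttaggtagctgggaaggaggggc
Il1rl1, chr1:40429320-40429569, plus strand: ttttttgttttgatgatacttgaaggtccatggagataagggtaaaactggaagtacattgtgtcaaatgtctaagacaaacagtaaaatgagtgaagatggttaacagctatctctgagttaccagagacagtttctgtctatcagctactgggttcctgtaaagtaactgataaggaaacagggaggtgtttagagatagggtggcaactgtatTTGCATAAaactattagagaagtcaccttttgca
An AP-1 match began 12 bases before the first listed start of Il1a and 141 bases before that of Il1rn. A C/EBP match began 34 bases before that of Il1rl1. The other listed promoters of these genes, numbers 2 and 3 of Il1rn and number 2 of Il1rl1, held 0 matches to any of the consensus letters. Which start these cells used was not measured. No match to these letters, or to the NF-κB consensus, lay in the window of Il1b. Searched on both strands in windows of 300 bases (250 before to 50 after the start) with no overlap between matches in the members, the AP-1 letters were found in 7.81%, the C/EBP letters in 10.8% and the NF-κB consensus in 8.46% of 32851 promoters. Of the 15 promoters listed for the 10 members, 2, 4 and 1 held them. A match of letters is a description of the sequence and was not tied to any binding measurement.

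In unstimulated WT cells the family was dominated by its receptor chains. With PBS, Il1r1 had 28.5 ± 2.54 and Il1rl1 24.6 ± 4.18 RPKM (reads scaled to exon length and library size; mean ± SD, n = 3), values within each other's spread, followed by Il1rap at 6.38 ± 0.12. Il1rn, at 2.91 ± 0.24 RPKM, and Il33, at 2.71 ± 0.44 RPKM, came next and did not differ from each other beyond their spread. The lowest were Il18bp at 0.85 ± 0.10, Il1a at 0.67 ± 0.06, Il18 at 0.63 ± 0.11, Il1r2 at 0.45 ± 0.09 and Il1b at 0.27 ± 0.07 RPKM. Among these, Il1a and Il18 lay within each other's spread. With rmCIRP the order by RPKM turned over, and the IL-1 ligands became the highest members on that scale. An order between genes depends on the exon lengths used. In reads not scaled to length Il1rl1 was the highest, at 19996 to 28789 reads against 15006 to 17016 for Il1b. Il1b stood at 245 ± 9.40 RPKM and Il1a at 120 ± 8.46 RPKM, ahead of Il1rl1 at 101 ± 17 RPKM, which overlapped with Il1a within the spread. Il1r1 at 26.3 ± 0.93 and Il1rn at 22.5 ± 2.58 RPKM followed, and Il1rap at 8.29 ± 0.28 and Il33 at 6.90 ± 1.71 RPKM lay within each other's spread, as did Il18 at 2.15 ± 0.53 and Il18bp at 1.78 ± 0.29 RPKM. Il1r2 was now last at 0.29 ± 0.10 RPKM.

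**Figure D1:**
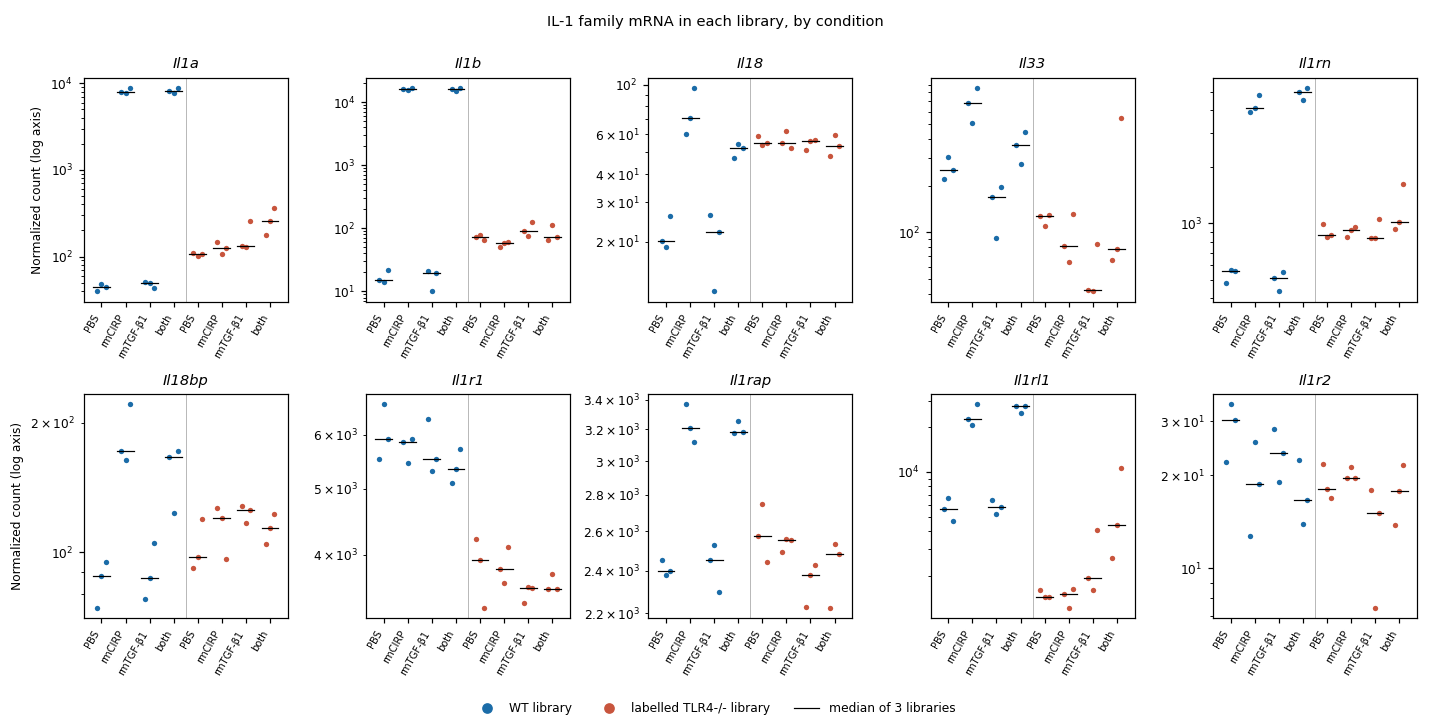
Normalized counts (log axis) of the 10 members in each of the 24 libraries, 3 points per condition with a line at their median, WT in blue and labelled TLR4-/- in red. In WT cells the rmCIRP and rmCIRP+rmTGF-β1 libraries of Il1a, Il1b and Il1rn lie far above the others, whereas the red points of Il1b stay between 50.1 and 127. The highest red point of Il33 (550.1), Il1rn (1626) and Il1rl1 (10562) is in each case the third rmCIRP+rmTGF-β1 library.

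Comparing rmCIRP with PBS in WT cells asked how the danger signal alone changes the family. Of the 10 members, 8 rose and 1 fell at an adjusted p under 0.1, where 43.9% of the 16258 genes tested were called, 19.8% higher and 24.1% lower. All 4 ligands, both antagonists, the accessory chain Il1rap and the IL-33 receptor Il1rl1 were higher, the decoy Il1r2 was lower, and the signaling receptor Il1r1 was not called. The median log2 fold change over the 10 members was 1.60, beside -0.02 over all genes tested. Since the members were chosen with earlier results of these data in view, that difference is a description.

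Il1b rose most. Its normalized counts (reads divided by the library's size factor) were 15.4, 14 and 21.9 in the 3 PBS libraries and 15923, 15495 and 16810 in the 3 rmCIRP libraries. The fold change on the log2 scale was 9.87 (SE 0.16, adjusted p = 6.73e-22, edgeR's quasi-likelihood test), from a base of 14 to 21 reads. Il1a, whose product is active without processing, went from 39.5, 47.9 and 44.8 to 7880, 7757 and 8831 normalized counts. It gained 7.53 log2 units (SE 0.21, adjusted p = 2.64e-17). For both ligands the lowest rmCIRP library was far above the highest PBS library. The other two ligands rose far less. Il18 had 20.2, 19 and 26.0 normalized counts with PBS and 60.5, 71.0 and 96.8 with rmCIRP, 3.5-fold higher (log2 change 1.81, SE 0.20, adjusted p = 2.94e-07). For Il33 the counts were 222, 308 and 251 with PBS and 684, 511 and 857 with rmCIRP, a log2 change of 1.39 (SE 0.44, adjusted p = 0.0159). The libraries of the 2 treatments did not overlap for any of the 4 ligands. The share of all genes tested that separated in this way was not counted, so this is a description.

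Both antagonists rose with the ligands. Il1rn, which blocks IL-1R1, had 485, 567 and 557 normalized counts with PBS and 3885, 4102 and 4814 with rmCIRP, 7.93-fold higher (log2 change 2.99, SE 0.15, adjusted p = 7.15e-13). Il18bp moved from 74.1, 87.9 and 94.7 to 172, 164 and 220.3 normalized counts, a log2 change of 1.11 (SE 0.15, adjusted p = 4.95e-06). In neither gene did a PBS library reach the lowest rmCIRP library, which is likewise a description.

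The receptor chains did not move together. Il1rl1, already abundant with PBS at 5619, 6631 and 4654 normalized counts, reached 22534, 20573 and 28440 with rmCIRP, 4.22-fold higher (log2 change 2.08, SE 0.34, adjusted p = 4.1e-05). The shared accessory chain Il1rap rose 1.34-fold, from 2453, 2380 and 2396 to 3367, 3211 and 3122 normalized counts (log2 change 0.42, SE 0.05, adjusted p = 4.67e-07). Il1r1 had 5526, 6643 and 5917 normalized counts with PBS and 5862, 5453 and 5918 with rmCIRP, and these ranges overlapped. The decoy receptor Il1r2 was scarce throughout, at 22.1, 33.9 and 30.2 normalized counts with PBS and 12.7, 25.7 and 18.8 with rmCIRP. Its libraries overlapped between the treatments, and its log2 change of -0.59 (SE 0.26, adjusted p = 0.088) was no longer called by DESeq2 (adjusted p = 0.161) or without the second or the third PBS library or the first or the third rmCIRP library (adjusted p up to 0.32). Cell markers moved in the same comparison. The summed fibroblast list was 807075 to 866295 normalized counts with PBS and 681665 to 726165 with rmCIRP, with 6 of 10 genes called lower and 2 higher. The macrophage list was 92075 to 100330 with PBS and 80364 to 85099 with rmCIRP, with 9 of 13 genes called lower and 4 higher. The neutrophil list was 141 to 173 with PBS and 392 to 426 with rmCIRP, while S100a9, Ly6g and Retnlg stayed at or under 10 reads. The epithelial list was 41.6 to 62.6 normalized counts with PBS and 19.1 to 24.7 with rmCIRP. The part of these lists in the members' changes was not tested.

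**Figure D2:**
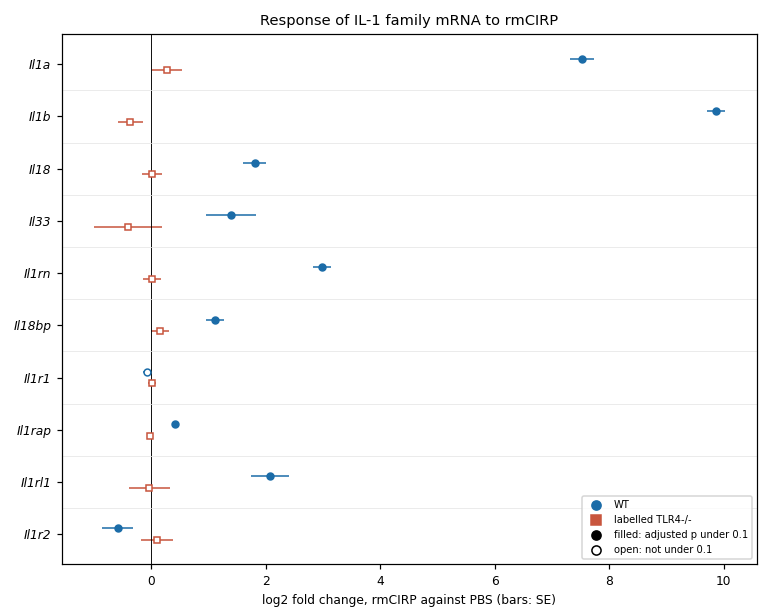
Log2 fold change of each member for rmCIRP against PBS with its standard error, in WT (circles) and in labelled TLR4-/- libraries (squares), filled where the adjusted p was under 0.1. In WT the IL-1 ligands Il1b (9.87) and Il1a (7.53) lie far to the right of the antagonist Il1rn (2.99), and all 10 squares are open.

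In the libraries labelled TLR4-/-, the same comparison called none of the members and none of the 16258 genes by edgeR's test (0%). At an unadjusted p under 0.05 there were 1136 genes and 0 members, and DESeq2 called 32 genes and 0 members. Il1b had 74.1, 79.5 and 64.7 normalized counts with PBS and 50.1, 57.5 and 60.9 with rmCIRP, without overlap and at a log2 change of -0.36 (SE 0.22, adjusted p = 0.802). Il1a had 109, 101 and 106 with PBS and 147, 108 and 125 with rmCIRP, and the groups overlapped. Il1rn read 997, 845 and 869 with PBS and 843, 924 and 957 with rmCIRP. Levels of Il1rl1 were likewise intermingled, at 1588, 1438 and 1437 with PBS and 1513, 1206 and 1634 with rmCIRP. For Il33, the 3 PBS libraries at 127, 110.2 and 129 normalized counts lay within the range of the rmCIRP libraries at 81.6, 64.0 and 132.

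Whether the genotypes responded differently to rmCIRP was tested in the same fit. A difference was called for 8 of the 10 members, each with the smaller response in the libraries labelled TLR4-/-, where 31.4% of all genes tested were called, 14.3% lower and 17.1% higher. The difference in log2 change was -10.23 for Il1b (SE 0.33, adjusted p = 1.21e-15), -7.25 for Il1a (SE 0.39, adjusted p = 7.29e-12) and -2.98 for Il1rn (SE 0.22, adjusted p = 7.93e-10). That of Il1rl1 was -2.11 (SE 0.48, adjusted p = 0.00262), and that of Il33 was -1.80 (SE 0.74, adjusted p = 0.0838). The call for Il33 was lost in 9 of the 12 fits that left out 1 library, with adjusted p-values up to 0.171, and in DESeq2 (adjusted p = 0.105), while the fit without the third labelled TLR4-/- library with rmCIRP+rmTGF-β1 gave an adjusted p of 0.000832. Il1r1 and Il1r2 were the members not called.

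The balance between ligand and antagonist was read from the ratio of reads per exon length within each library. With PBS the antagonist was the higher in WT cells, with Il1a to Il1rn ratios of 0.228 to 0.239 and Il1b to Il1rn ratios of 0.0740 to 0.117. With rmCIRP the ligands were, at 5.14 to 5.69 for Il1a to Il1rn and 10.1 to 11.9 for Il1b to Il1rn, so that the rise of Il1rn was smaller than that of either agonist. In reads not scaled to length the excess was smaller but had the same direction. The first rmCIRP library had 15006 reads of Il1b and 7426 of Il1a against 3661 of Il1rn. The change in the mean log2 ratio was 6.87 for Il1b to Il1rn, beside SDs of 0.12 and 0.33 in the 2 conditions, and 4.53 for Il1a to Il1rn, beside SDs of 0.07 and 0.04. For Il18 to Il18bp the ratio moved from between 0.647 and 0.818 to between 1.04 and 1.29, a change of 0.67 in the mean log2 ratio. Il33 to Il1rl1 went the other way, from 0.0947 to 0.129 down to 0.0594 to 0.0726, since the receptor rose more than its ligand. The ratio of the signaling receptor Il1r1 to the decoy Il1r2 was 57.8 to 73.3 with PBS and 62.3 to 133 with rmCIRP, and the ranges overlapped. In the libraries labelled TLR4-/- no condition brought Il1a or Il1b above Il1rn: the highest ratio was 0.710 for Il1a, with rmCIRP+rmTGF-β1, and 0.351 for Il1b, with rmTGF-β1. Il18 to Il18bp stood above 1 in every library labelled TLR4-/-, at 1.18 to 1.90 over all conditions and 1.35 to 1.90 with PBS. The level of a ratio depends on the union exon lengths used, while its change between conditions does not. For Il18 and Il18bp these lengths were 1031 and 3026 bases. In reads not scaled to length, Il18 was below Il18bp in every library, as at 60 against 93 in the first labelled TLR4-/- library with PBS. Ratios were given no test.

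**Figure D3:**
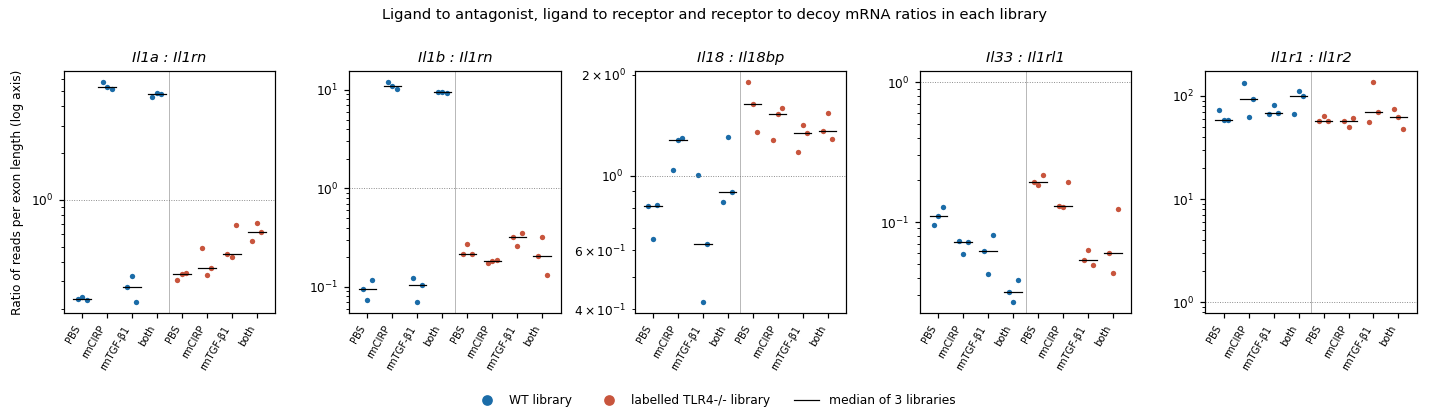
Ratio of reads per exon length (log axis) for 5 pairs in each library, with a line at the median of the 3 libraries and a dotted line at a ratio of 1. The level of each ratio depends on the exon lengths used, and its change between conditions does not. In WT the Il1a to Il1rn and Il1b to Il1rn ratios cross from below 1 with PBS (up to 0.239 and 0.117) to above 1 with rmCIRP (5.14 to 5.69 and 10.1 to 11.9), and in red they stay below 1 in every condition.

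The libraries labelled TLR4-/- differed from WT before any stimulus, and genotype cannot be told apart from cell pool or culture in this comparison. With PBS, 4 members were higher and 3 lower, where 47.1% of all genes tested were called, 23.2% higher and 24% lower. Il1b was 4.24-fold higher (log2 change 2.08, SE 0.29, adjusted p = 3.13e-06), with every labelled TLR4-/- library above every WT library. Il18, at 59.3, 54.0 and 54.8 normalized counts, was 2.57-fold higher (log2 change 1.36, SE 0.21, adjusted p = 1.83e-05). Il1a was 2.38-fold and Il1rn 1.68-fold higher (adjusted p = 0.00429 and 0.000636). On the receptor side, Il1rl1 was 3.8-fold lower (log2 change -1.92, SE 0.35, adjusted p = 0.000113) and Il1r1, at 4219, 3933 and 3339 normalized counts, was 1.58-fold lower (log2 change -0.66, SE 0.08, adjusted p = 2.97e-07). Il1r2 had 21.7, 18 and 16.9 normalized counts, a log2 change of -0.60 (SE 0.26, adjusted p = 0.076) that was not called by DESeq2 (adjusted p = 0.139) or in 4 of the 6 fits that left out 1 library. Il33 was 127, 110.2 and 129 normalized counts, below all 3 WT libraries, with a log2 change of -1.09 (SE 0.52) whose adjusted p was 0.103, and 0.00159 in the fit without the third rmCIRP+rmTGF-β1 library. The macrophage list moved with the same labels: its sum was 346064 to 397412 normalized counts with PBS, against 92075 to 100330 in WT, and 12 of its 13 genes were higher and 1 lower. The endothelial list was lower, as Il1rl1 and Il1r1 were, with 4 of 5 genes called lower and sums of 302 to 379 against 645 to 942 normalized counts in WT. The epithelial list was 190 to 200.3 against 41.6 to 62.6, with both of its tested genes higher. The mast cell list was lower, at 4.98 to 14.8 against 23.1 to 30.2, with 1 of 2 tested genes called lower. The neutrophil list was higher, at 262 to 326 against 141 to 173, with 1 of 2 tested genes called higher. The share of the members' differences that goes with these transcripts was not tested.

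With rmCIRP the genotypes differed in the opposite direction for Il1a, Il1b, Il18 and Il1rn. All members except Il1r2 were lower in the libraries labelled TLR4-/-, where 59.5% of all genes tested were called, 29.2% lower and 30.4% higher. Il1b was 284-fold, Il1a 64.1-fold, Il1rl1 16.4-fold, Il33 7.39-fold and Il1rn 4.68-fold lower, with adjusted p-values between 1.48e-21 and 4.41e-05 and no overlap of libraries. The share of all genes tested that separated in this way was not counted for this or any other comparison, so separation is a description. Il18 was lower by only 0.43 on the log2 scale (SE 0.17, adjusted p = 0.0396), and without the third WT rmCIRP library, or the third labelled TLR4-/- rmCIRP library, its adjusted p was 0.33 or 0.118. The macrophage list was again the higher in the libraries labelled TLR4-/-, at 335358 to 380414 against 80364 to 85099 normalized counts in WT, opposite in direction to the 9 members. The endothelial list was lower, in the direction of the members, at 264 to 317 against 678 to 839 normalized counts (4 of 5 genes called lower), as was the mast cell list at 8.85 to 10.8 against 31.9 to 41.5 (2 of 2 tested genes lower). Their part in the members' differences was not tested.

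**Figure D4:**
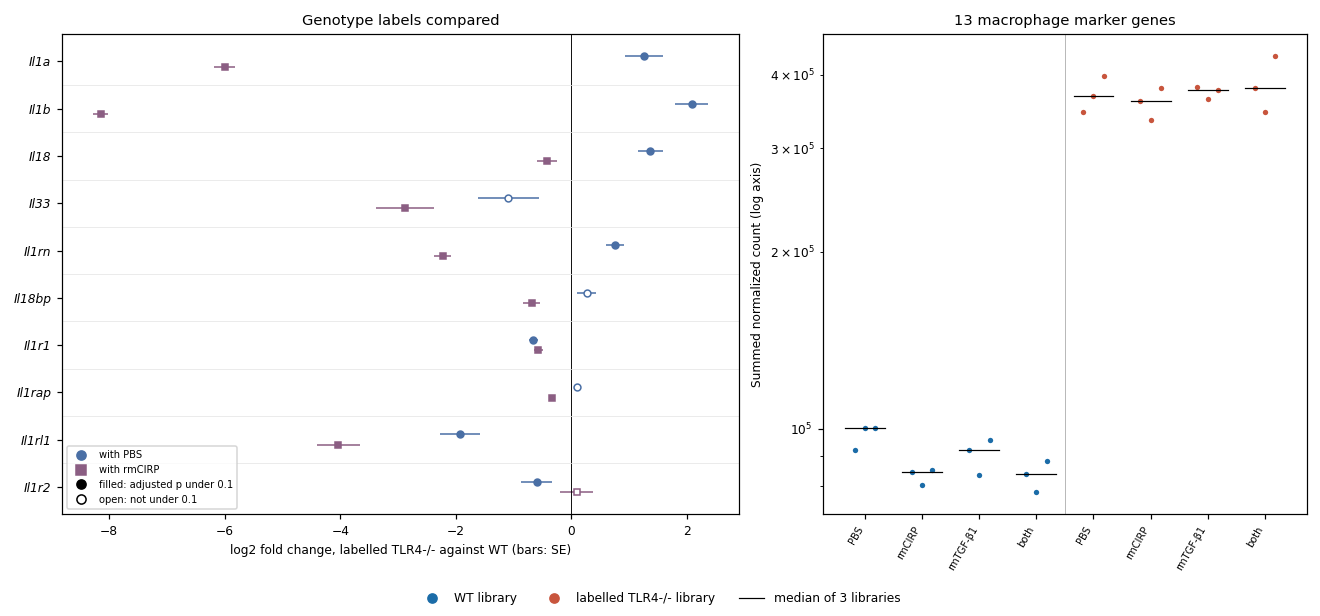
Left, log2 change with its standard error of labelled TLR4-/- against WT libraries with PBS (circles) and with rmCIRP (squares), filled where the adjusted p was under 0.1; right, the summed normalized count (log axis) of the 13 macrophage markers in each library. Il1b lies at 2.08 with PBS and at -8.15 with rmCIRP, while the marker sum is 335358 or more in every red library and 100330 or less in every blue one.

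rmTGF-β1, a growth factor that drives fibroblasts toward matrix production, was compared without and with rmCIRP. In WT cells it called none of the 10 against PBS, where 12.4% of all genes tested were called (5.77% higher and 6.65% lower). None of the members had an unadjusted p under 0.05 or was called by DESeq2. At that share, a count of 0 among 10 does not show that the family was spared. Il33 came nearest. Its counts with rmTGF-β1 were 168, 92.0 and 196, all below the 3 PBS libraries at 222, 308 and 251, with a log2 change of -0.77 (SE 0.50, adjusted p = 0.407). With rmTGF-β1 added to rmCIRP, the same gene read 366, 277 and 447 normalized counts against 684, 511 and 857 with rmCIRP alone (log2 change -0.92, SE 0.43, adjusted p = 0.168). In the libraries labelled TLR4-/- it read 42.6, 41.4 and 84.2 with rmTGF-β1 and 127, 110.2 and 129 with PBS (log2 change -1.10, SE 0.65, adjusted p = 0.275). In each of these 3 comparisons every library with rmTGF-β1 lay below every library without it, and in none was Il33 called. With rmCIRP present in the libraries labelled TLR4-/-, the groups overlapped, at 66.1, 78.3 and 550.1 normalized counts with rmCIRP+rmTGF-β1 and 81.6, 64.0 and 132 with rmCIRP. These p-values rest on a spread that includes the third labelled TLR4-/- library with rmCIRP+rmTGF-β1, where Il33 was the highest of its group. Without that library, an alternative chosen after seeing the data, the log2 changes of Il33 were -0.77, -0.92 and -1.09 and their adjusted p-values 0.0476, 0.00236 and 0.0229.

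The genotypes were not shown to differ in the response to rmTGF-β1. None of the members was called in that test, where 0.0861% of all genes were called (0.0369% higher and 0.0492% lower), and none had an unadjusted p under 0.05. In WT cells, likewise, the interaction of rmCIRP with rmTGF-β1 called no member at a background of 0.0492% (0.0369% higher and 0.0123% lower), with 0 members at an unadjusted p under 0.05 and 0 by DESeq2. The response to rmCIRP in the presence of rmTGF-β1 was read as its own comparison. Against rmTGF-β1 alone, rmCIRP+rmTGF-β1 raised 8 members in WT cells, at a background of 42.2% called and 20.5% higher. Il1b had 16238, 14685 and 16777 normalized counts with both and 21.2, 10.0 and 19.4 with rmTGF-β1 alone, a log2 change of 9.85 (SE 0.16, adjusted p = 6.02e-22). Il1a at 7.43 (SE 0.21, adjusted p = 2.04e-17), Il1rn at 3.28 (SE 0.16, adjusted p = 1.88e-13) and Il1rl1 at 2.20 (SE 0.34, adjusted p = 2.38e-05) also rose on the log2 scale. Il33 was called at 1.24 (SE 0.49, adjusted p = 0.0528), and lost without the second rmTGF-β1 library (adjusted p = 0.183) or the third with both (adjusted p = 0.16).

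Against rmCIRP alone, rmCIRP+rmTGF-β1 lowered 1 member in WT cells, the ligand Il18. Of all genes tested 20.5% were called, 10% higher and 10.5% lower, so this count is no result about the family. Il18 had 46.9, 54.5 and 52.1 normalized counts with both and 60.5, 71.0 and 96.8 with rmCIRP, with no overlap and a log2 change of -0.58 (SE 0.18, adjusted p = 0.0273). Without the third rmCIRP library it was -0.36 (adjusted p = 0.236), and without the first with both it was -0.52 (adjusted p = 0.109). The other ligands and both antagonists were not called, and Il1a and Il1b overlapped between the 2 conditions.

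**Figure D5:**
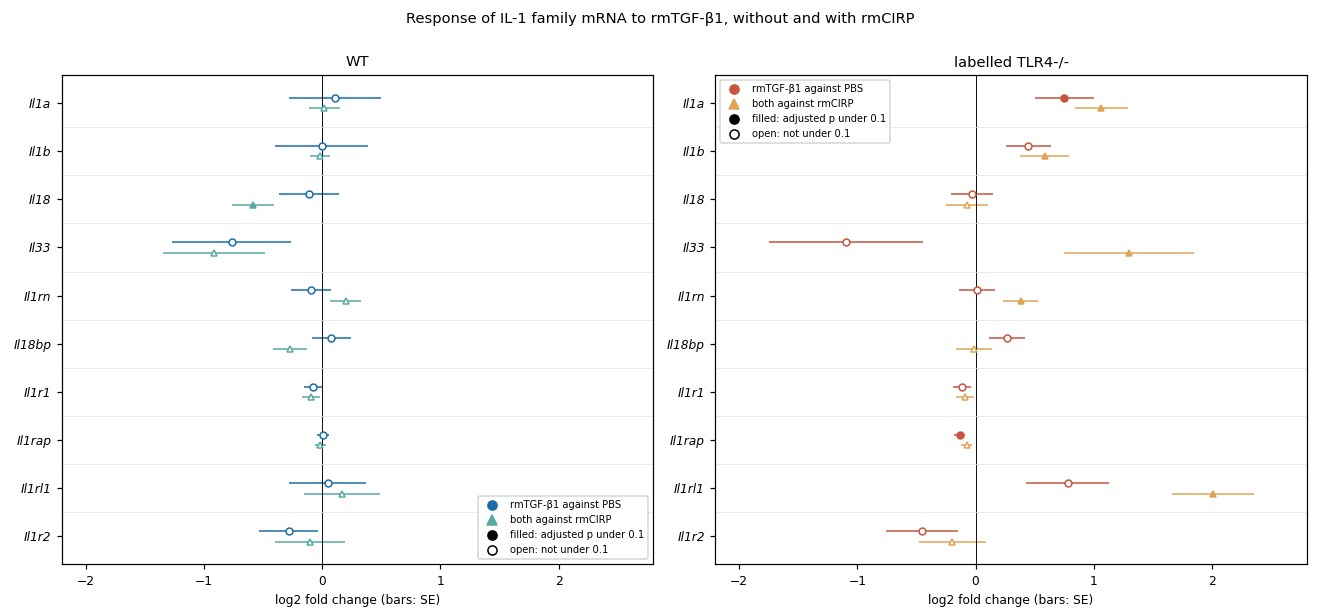
Log2 fold change with its standard error of each member for rmTGF-β1 against PBS (circles) and for rmCIRP+rmTGF-β1 against rmCIRP (triangles), in WT (left) and labelled TLR4-/- libraries (right), filled where the adjusted p was under 0.1. Il33 lies at -0.77 and -0.92 in WT and at -1.10 and 1.30 on the right, where the last value becomes -0.35 without the third rmCIRP+rmTGF-β1 library.

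In the libraries labelled TLR4-/-, rmTGF-β1 against PBS called 2 members. Of all genes tested 23.9% were called, 12.1% higher and 11.7% lower, so this count is no result about the family. Il1a rose from 109, 101 and 106 to 133, 128 and 260 normalized counts without overlap, a log2 change of 0.75 (SE 0.25, adjusted p = 0.041) that was 0.32 without the third rmTGF-β1 library (adjusted p = 0.433) and also lost its call without the second PBS library (adjusted p = 0.108). Il1rap fell by 0.14 on the log2 scale (SE 0.05, adjusted p = 0.0578), with no overlap of libraries, and lost its call without the first or the second PBS library or the first rmTGF-β1 library. Il1rl1 was 1923, 1592 and 4078 normalized counts with rmTGF-β1, above the PBS libraries at 1588, 1438 and 1437, with an adjusted p of 0.133. Its log2 change was 0.78 (SE 0.35), and 0.25 (adjusted p = 0.716) without the third rmTGF-β1 library.

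Adding rmCIRP to rmTGF-β1 in these cells called Il1rl1 alone, where 2.69% of all genes tested were called (1.56% higher and 1.13% lower). Il1rl1 had 2646, 4361 and 10562 normalized counts with both, overlapping with rmTGF-β1 alone, and its log2 change of 1.20 (SE 0.34, adjusted p = 0.091) fell to 0.46 (adjusted p = 0.652) without the third library with both. Without the first or the second rmTGF-β1 library its adjusted p was 0.411 or 0.296. When the third libraries of both conditions were left out, Il1rl1 stood at 0.99 (adjusted p = 0.0111) and Il1a at 0.75 (adjusted p = 0.0167), and 2 members were called.

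Compared with rmCIRP alone, rmCIRP+rmTGF-β1 raised 5 members in the libraries labelled TLR4-/-, where 32.8% of all genes tested were called, 17.2% higher and 15.6% lower. Il1rl1 was 4.02-fold higher (log2 change 2.01, SE 0.35, adjusted p = 0.000289), and every library with both exceeded every rmCIRP library. Il1a, at 180, 256 and 362 normalized counts with both against 147, 108 and 125, was 2.09-fold higher (log2 change 1.06, SE 0.22, adjusted p = 0.00149). Il1b had 66.1, 112 and 73.1 normalized counts with both, 1.5-fold higher than with rmCIRP (log2 change 0.59, SE 0.21, adjusted p = 0.0421), and lost its call without the second of them (adjusted p = 0.332) or the first rmCIRP library (adjusted p = 0.122). The calls for Il33 (log2 change 1.30, SE 0.55, adjusted p = 0.0894) and Il1rn (0.38, SE 0.15, adjusted p = 0.0656) rested on the third library with both. Without it Il1rl1 was at 1.27 (adjusted p = 0.00135) and Il1a at 0.79 (adjusted p = 0.0124), both still called, whereas Il33 was at -0.35 (adjusted p = 0.592) and Il1rn at 0.10 (adjusted p = 0.621), and 3 members were called. The calls for Il33 and Il1rn were also lost without the first or the second rmCIRP library. In the third library with both, Il1rn was 1626 normalized counts against 929 and 1014 in its replicates. Its summed endothelial markers were 782 normalized counts against 334 and 414, and its summed neutrophil markers 495 against 221 and 222, and their part in the members' levels was not tested.

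The genes that mature or relay IL-1 family signals were taken from lists of related genes. Of 8 genes for precursor processing, 7 rose and 1 fell with rmCIRP in WT cells, where 19.8% of all genes tested were called higher and 24.1% lower, with a median log2 change of 0.66 beside -0.02 over all genes tested. Since the lists were chosen with earlier results of these data known, their counts and medians are descriptions. The smallest of the rises was that of Casp8, at 0.11 on the log2 scale (SE 0.04, adjusted p = 0.029, edgeR's test). Nlrp3, the inflammasome sensor, rose by 3.06 on the log2 scale (SE 0.11, adjusted p = 2.28e-15), and Casp1, which cuts the precursors of IL-1β and IL-18, by 1.53 (SE 0.14, adjusted p = 7.27e-09). Casp4 rose by 1.66 (SE 0.13) and Gsdmd, which forms the pore through which IL-1β leaves the cell, by 0.62 (SE 0.06). The adaptor Pycard fell by 1.34 (SE 0.22, adjusted p = 3.79e-05), from a mean of 52.8 to 20.8 normalized counts. In the libraries labelled TLR4-/-, none of the 8 was called with rmCIRP, and with PBS all 8 were higher than in WT, where 23.2% of all genes tested were called higher, Nlrp3 by 2.39, Pycard by 2.11 and Casp1 by 2.09 on the log2 scale. The summed macrophage markers were also higher with PBS, and their part in these differences was not tested.

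Of 11 genes of the signaling relay, 3 rose with rmCIRP in WT cells and 8 were not called, with a median of 0.02, and with 19.8% of all genes tested called higher this count is no result about the relay. Irak3, an inhibitor of the relay, rose by 1.01 (SE 0.11, adjusted p = 3.11e-07), Myd88 by 0.51 (SE 0.05, adjusted p = 1.17e-07) and Traf6 by 0.24 (SE 0.06, adjusted p = 0.0053) on the log2 scale. Their responses were smaller in the libraries labelled TLR4-/- by 1.17, 0.51 and 0.22 (adjusted p = 1.93e-05, 3.33e-05 and 0.0742). Among 11 further family genes, 3 passed the filter on low counts. Il18rap, the accessory chain of the IL-18 receptor, rose with rmCIRP in WT cells from a mean of 104 to 232 normalized counts (log2 change 1.16, SE 0.16, adjusted p = 3.64e-06), and Il1f9, which encodes IL-36γ, from 3.63 to 24.5. Il1rl2, the receptor of the IL-36 cytokines, was not called with rmCIRP and was lower in the libraries labelled TLR4-/- with PBS (log2 change -0.62, SE 0.07, adjusted p = 5.58e-07).

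Across the 24 libraries, which share their conditions and depth, the log2 levels of Il1a and Il1b had a Pearson correlation of 0.99 and those of Il1a and Il1rn of 0.989. Il33 and Il1rl1 were correlated at 0.841, and Il1r2 with Il1b at -0.26. Over the 12310 genes averaging 50 or more normalized counts, the profiles most like that of Il1b were those of Acsl1 (0.99), Il1a (0.99) and Malt1 (0.988), and the ones most like Il1rn were Tnfrsf1b, Il1a and Trim25 (each 0.989). The nearest to Il33 were Ptger2 (0.964), Stc1 (0.958) and Dio2 (0.952), and the nearest to Il1rl1 were Btc (0.992), Tbx3 (0.99) and Ptprn (0.985). These values describe likeness over libraries and carry no test.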

How the data were processed

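Total RNA was made into 24 TruSeq stranded libraries. Per the labels, the authors counted reads per gene with HTSeq and deposited raw counts, 1 table per library. The paper's methods name alignment with STAR2 to GENCODE, and the submitters' processing notes name the build NCBIM37. The strand option is not given in the sources used here. Exons of Il1a, Il1b, Il18bp and Il1rap overlap a gene on the opposite strand by 222, 25, 80 and 552 bases. Depending on that option, reads there could have been set aside as ambiguous or given to the wrong gene. The 5 tally lines were left out (4.88 to 5.58% of reads ambiguous, 3.71 to 5.02% on no gene). Conditions were taken from the labels.

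The edgeR 4.0.16 quasi-likelihood test (R 4.3.3) was run with TMM scaling on the 16258 genes kept by filterByExpr, with 1 mean per condition and 13 contrasts. P-values were adjusted by Benjamini-Hochberg over all genes tested, and an adjusted p under 0.1 was called, the threshold in the paper's methods. Each SE was taken as the absolute log2 change divided by the square root of F. Normalized counts use DESeq2 1.42.0 size factors. RPKM and ratios use union exon lengths of GENCODE M21, which matched 53292 of 55291 names, and ratios add 0.5 to each count. The fit was tested on simulated data. Alternatives were DESeq2, RLE scaling, other filters, the replicate number as a block, the compared libraries alone and leaving out each library. The rule for named genes took all 10 members, the genes of 3 pathway lists, Tlr4, and the 3 genes most like Il1b, Il1rn, Il33 and Il1rl1. The members and lists were chosen with earlier results of these data known.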

Additional observations from a re-analysis of the deposited data

Results flagged for a closer look

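The response to rmCIRP differed between the genotypes for 8 members by the test of that difference in edgeR's quasi-likelihood fit. Over all genes tested 31.4% were called, 14.3% lower and 17.1% higher. The call for Il33 was lost in 9 of the 12 fits that left out 1 library, and by DESeq2. As the log2 response in the libraries labelled TLR4-/- minus that in WT, the difference was -7.25 for Il1a, -10.23 for Il1b, -1.79 for Il18, -1.80 for Il33, -2.98 for Il1rn, -0.96 for Il18bp, -0.44 for Il1rap and -2.11 for Il1rl1, with adjusted p-values from 1.21e-15 for Il1b to 0.0838 for Il33. The summed count of the 13 macrophage markers was higher in every library labelled TLR4-/- than in every WT library, with 12 of the 13 genes called higher and 1 lower with PBS and with rmCIRP, and the endothelial list was lower in both (4 of 5 genes). Their part in these differences was not tested.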

How the results depend on the processing

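Of the alternatives tried, none moved the count of members called by more than 1.5 times for rmCIRP against PBS in either genotype, for rmCIRP+rmTGF-β1 against rmTGF-β1 in WT cells, for the genotypes compared with PBS or rmCIRP, for the genotype difference in the rmCIRP response, or for the WT interaction. The other counts moved as follows. For rmCIRP+rmTGF-β1 against rmTGF-β1 in libraries labelled TLR4-/- (1 member called), it was 2 by DESeq2, 2 with a mean count of at least 10, 4 without a filter, 0 in the compared libraries alone, 2 without the third rmTGF-β1 library and the third rmCIRP+rmTGF-β1 library, and 0 to 4 over fits leaving out 1 library. For rmTGF-β1 against PBS there (2 called), it was 6 without a filter, 4 without the third rmCIRP+rmTGF-β1 library, and 0 to 4 leaving out 1 library. For rmCIRP+rmTGF-β1 against rmCIRP there (5 called), it was 2 in the compared libraries alone, 3 without both of these libraries, and 2 to 5 leaving out 1 library. The log2 fold change of Il33 in that comparison turned to -0.35 without both of these libraries, and ranged from -0.35 to 1.73 leaving out 1 library. In WT cells, rmTGF-β1 against PBS (0 called) gave 1 without a filter, in the compared libraries alone, without the third labelled TLR4-/- rmCIRP+rmTGF-β1 library, and without both of these libraries, each time Il33. For rmCIRP+rmTGF-β1 against rmCIRP (1 called), it was 4 without a filter, 3 in the compared libraries alone, 2 without the third labelled TLR4-/- rmCIRP+rmTGF-β1 library, 3 without both of these libraries, and 0 to 1 leaving out 1 library. The genotype difference in the rmTGF-β1 response (0 called) gave 1 without a filter. Over all genes tested, calls for rmCIRP+rmTGF-β1 against rmTGF-β1 in libraries labelled TLR4-/- went from 437 to 924 by DESeq2, 1580 without a filter, 810 with the block and 0 in the compared libraries alone, and those against rmCIRP from 5329 to 2710 in the compared libraries alone. For rmCIRP against PBS there, calls went from 0 to 32, 149 and 29 by DESeq2, without a filter and in the compared libraries alone. The genotype difference in the rmTGF-β1 response went from 14 to 173 by DESeq2 and 563 without a filter, and the WT interaction from 8 to 39 and 198, and to 125 in the compared libraries alone. The cause of these shifts was not tested. Fits without these 2 libraries together, or without the rmCIRP+rmTGF-β1 one in comparisons that do not use it, were chosen after seeing the data.

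Replicate numbers are shared between conditions. Of 84 same-numbered pairs of libraries, 4 had deviations correlated above 0.1 (mean 0.01, highest 0.334). Most same-numbered libraries therefore did not vary together, and the main fit treated none as paired. The 2 labelled TLR4-/- libraries that differed most from their replicates both carry the number 3, and pairing of single libraries is not excluded. With the replicate number as a block, 4 members were called for rmCIRP+rmTGF-β1 against rmTGF-β1 in libraries labelled TLR4-/- and 2 for rmCIRP+rmTGF-β1 against rmCIRP in WT cells, and the other counts stayed within 1.5 times. With 3 libraries a condition and at most 34 reads of Il1r2 in every library, small changes of that gene were not detectable at this depth.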
